A study of Mus musculus with 4 samples.

Results

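The unfolded protein response and the integrated stress response were followed through 34 genes of their sensors, transcription factors and targets. The genes were taken as a list, and all 34 had at least 1 mouse probe whose annotation gave a single gene symbol, out of 19087 genes measured. They were read by 60 array features, with 16 genes on more than 1 feature. The tumours were xenografts of MDA-MB231, a human breast carcinoma cell line, grown in immunodeficient mice. Sunitinib, which blocks receptor tyrosine kinases such as those of VEGF and PDGF, was given at 40 mg/kg/day in the treated group (n = 2), and the other group received vehicle (n = 2). Strain, sex, age and the time since the last dose are not given in the labels, although the series title speaks of withdrawal. Each array read 0.5 µg of total RNA with a RIN of 9, and values are log2 intensities of a single colour. Replicate 1 of both groups shared slide 1 and replicate 2 shared slide 2, so a difference on a slide is sunitinib minus vehicle for that replicate number. A gene's value is that of its brightest probe unless another is named.

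Secretory proteins fold in the endoplasmic reticulum (ER). When unfolded proteins collect there, the membrane sensors Ern1 (IRE1), Eif2ak3 (PERK) and Atf6 raise the production of chaperones, protein disulphide isomerases and the machinery of ER-associated degradation, through spliced Xbp1 and cleaved Atf6. PERK and other eIF2α kinases, which respond to amino acid shortage and haem deficiency among other stresses, slow translation and favour the synthesis of Atf4, which drives genes of amino acid uptake and synthesis together with Ddit3 (CHOP), Atf3 and feedback regulators. In tumours these responses are known to be engaged by low oxygen and poor nutrient supply. The splicing of Xbp1, the cleavage of Atf6 and the translation of Atf4 change protein activity, and mRNA levels do not measure them. A mouse probe reads host cells, and it may also bind RNA of the human tumour cells, and these sources cannot be told apart here. In such bulk samples, fewer cells of a type and less RNA per cell cannot be told apart either.

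The arms are known for different promoter elements, and 3 motifs were searched on both strands in the 250 bases before the RefSeq start sites (GRCm38.p6). These were the ER stress element (ERSE: CCAAT, then 9 bases of any kind, then CCACG), its variant ERSE-II (ATTGG, any 1 base, then CCACG, the last part shared with ERSE) and the C/EBP-ATF response element bound by Atf4 (CARE, read as TGATGNAA). Promoters were at hand for 30 of the 34 genes. ERSE lay in 5 of these (Calr, Canx, Creld2, Pdia6 and Syvn1) and in 0.113% of all 32851 promoters. ERSE-II lay in 1 (Herpud1) and in 0.0304% of all. CARE lay in 7 (Asns, Atf3, Chac1, Herpud1, Nupr1, Slc7a11 and Vldlr) and in 3.45% of all. A match describes these letters and does not show binding. The following 100-base stretches are shown because they carry the elements of genes whose values are compared in later paragraphs. Each is written 5′ to 3′ along its gene, with the motif in capitals.
Creld2 (ERSE, chr15:88819479-88819578, + strand): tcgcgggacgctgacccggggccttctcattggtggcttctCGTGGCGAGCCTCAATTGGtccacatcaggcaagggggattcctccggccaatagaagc
Calr (ERSE, chr8:84847035-84847134, - strand): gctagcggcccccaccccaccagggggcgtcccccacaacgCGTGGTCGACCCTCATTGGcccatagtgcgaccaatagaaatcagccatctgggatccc
Pdia6 (ERSE, chr12:17266450-17266549, + strand): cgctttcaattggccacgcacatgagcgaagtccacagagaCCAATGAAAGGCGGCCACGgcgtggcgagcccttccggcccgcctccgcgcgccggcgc
Herpud1 (CARE, then ERSE-II, chr8:94386302-94386401, + strand): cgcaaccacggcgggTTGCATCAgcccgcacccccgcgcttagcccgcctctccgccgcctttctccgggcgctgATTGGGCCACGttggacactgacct
Chac1 (CARE, chr2:119351003-119351102, + strand): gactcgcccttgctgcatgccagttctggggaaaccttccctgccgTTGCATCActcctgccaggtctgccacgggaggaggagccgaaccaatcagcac
Nupr1 (CARE, chr7:126625527-126625626, - strand): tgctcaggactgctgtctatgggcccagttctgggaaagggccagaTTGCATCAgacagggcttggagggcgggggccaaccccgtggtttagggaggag
Asns (CARE, chr6:7693210-7693309, - strand): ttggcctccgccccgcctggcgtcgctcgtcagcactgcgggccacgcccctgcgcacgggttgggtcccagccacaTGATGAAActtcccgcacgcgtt

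Before the genes are described, the arrays themselves need a word, because their surfaces were uneven in areas that held member probes. On a layout of 85 columns inferred from the feature numbers, bright features below saturation were compared on each array with the median of the other 3 arrays. The array of sunitinib replicate 2 had 267 of 5601 bright features lower by at least 1 log2, against 42 on sunitinib replicate 1, 73 on vehicle replicate 1 and 31 on vehicle replicate 2. Of the 267, 237 lay in patches as defined next. The local median over features within 10 rows and columns reached -1.17 there and -0.74 on vehicle replicate 1. Features with a local median of at least 0.25 in size on any array are called patch features, a limit set after the data were seen. Patches held 31.8% of all features, 14 of the 60 member features and the brightest probe of 6 members (Pdia4, Creld2, Derl2, Sel1l, Eif2ak3 and Xbp1).

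**Figure D1:**
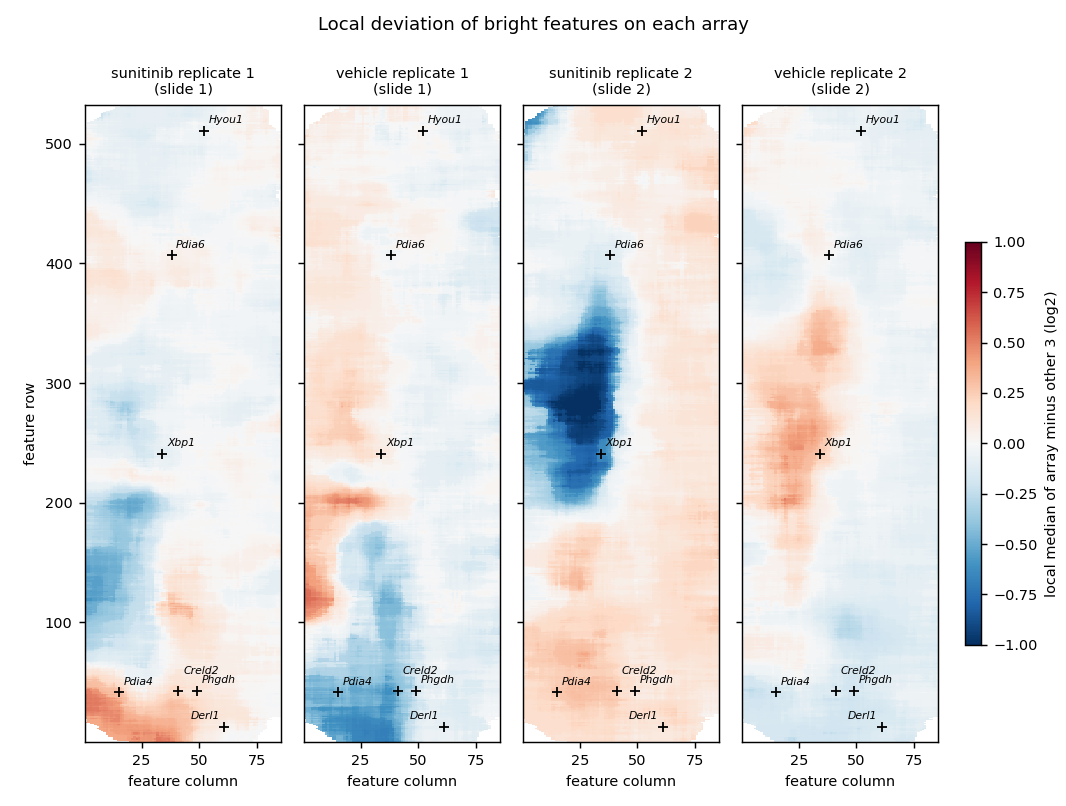
Map of each array by feature column and row, coloured by the local median deviation of bright features from the other 3 arrays (log2, blue lower and red higher), with crosses at the brightest probes of 7 members. Xbp1 lies in the blue area of sunitinib replicate 2, Pdia4 and Creld2 lie in the blue area of vehicle replicate 1, and Pdia6 lies beyond the edge of the blue area of sunitinib replicate 2.

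No member passed in limma after Benjamini-Hochberg adjustment over all 30654 tested values (adjusted p = 0.362 to 0.929), where 0.00524% of genes, namely Xist alone, did. Xist, the RNA of the inactive X chromosome, read 8.97 and 8.96 with sunitinib and 12.19 and 12.26 with vehicle, and differed by -3.26 (SE 0.08, limma adjusted p = 0.0149, and 0.546 with a slide term). The members' differences cannot be told apart from a difference between arrays without and with Xist signal. At an unadjusted p under 0.05, limma took 6 members as higher with sunitinib (17.6% of the 34, background 8.01% of all genes, and 998 of 9535 genes above the median level) and 2 as lower (5.88%, background 5.93%, and 7.01% above the median level). Those higher were Phgdh, Derl1, Chac1, Pdia4, Creld2 and Hyou1, and those lower were Nupr1 and Sesn2. Fitted with a slide term, Phgdh, Derl1 and Chac1 were left as higher (background 5.46%) and 0 as lower (background 3.93%). Without vehicle replicate 1, 2 members were higher (background 3.76%) and 0 lower (2.59%). Without sunitinib replicate 1, 4 members were higher (background 6.12%) and 3 lower (7.66%). Without sunitinib replicate 2, 3 members were higher (background 4.34%) and 3 lower (4.69%), and without vehicle replicate 2, 6 were higher (5.01%) and 1 lower (3.43%).

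Both sunitinib arrays lay above both vehicle arrays for 16 members (47.1%, background 25.9% of all genes) and below both for 5 (14.7%, background 22.3%), and the groups overlapped for the other 13. Among genes above the median level the background was 28.7% and 22.2%. On both slides, 18 members read higher (52.9%, background 32%) and 6 lower (17.6%, background 27.9%). Without patch features 31 members were left. Of these, 0 passed the adjusted threshold (0.00663% of genes), 4 were higher at an unadjusted p under 0.05 (background 10.9%) and 2 lower (4.55%). Without overlap, 14 of the 31 lay above (background 30.6%) and 6 below (background 17.6%). Of the genes left outside patches, 36.7% read higher and 22.7% lower on both slides. These counts changed when position on the array was modelled. With a smooth position trend removed from every array, 9 members lay above (background 21.5%) and 8 below (background 23%). A split of 2 against 2 arrays cannot reach 0.05 in a two-sided exact permutation test (the smallest p is 0.333), so none was run.

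**Figure D2:**
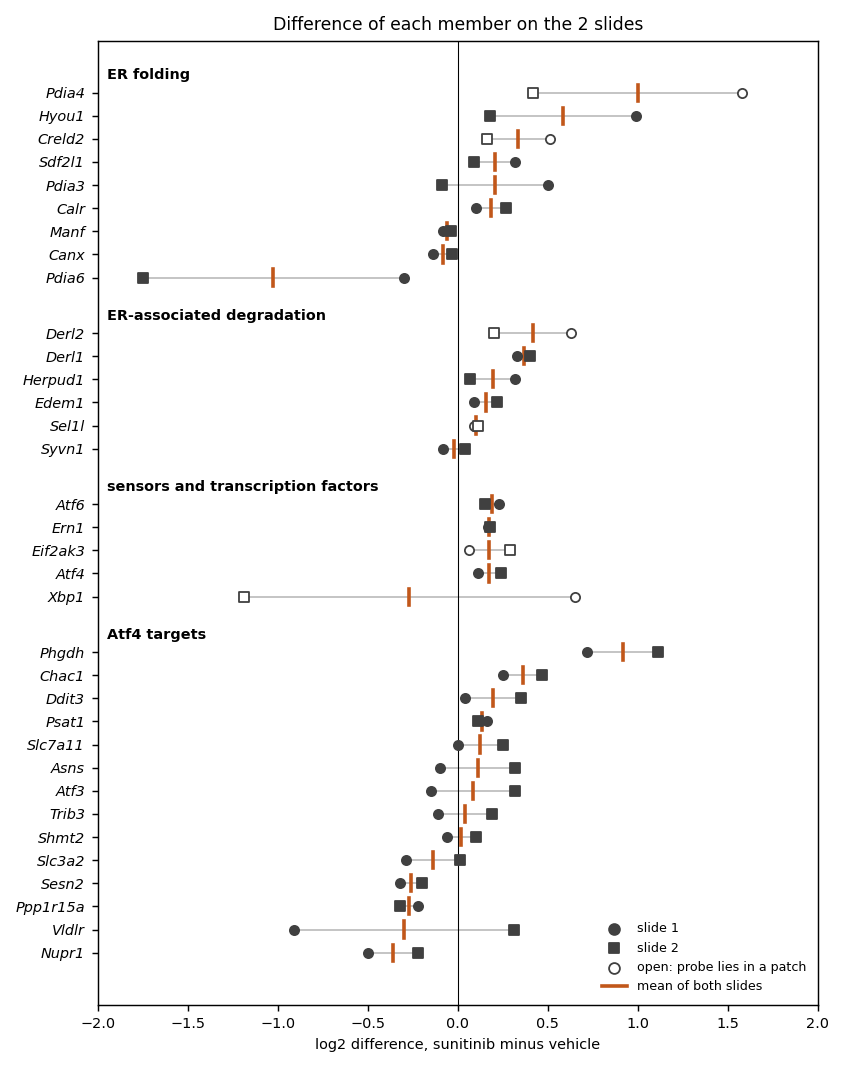
Log2 difference of sunitinib minus vehicle for each of the 34 members, from the brightest probe, on slide 1 (circles) and slide 2 (squares), with the mean of both as an orange bar. Open symbols mark probes in patches. ER folding genes spread furthest on slide 1 to the right (Pdia4 at 1.58, Hyou1 at 0.99), while Pdia6 and Xbp1 lie far to the left on slide 2.

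The sensors and transcription factors differed little. Over the 5 genes the median difference was 0.175 log2, with 0.17 on slide 1 and 0.18 on slide 2, against 0.005 over all genes. Atf6, which is cleaved in the Golgi to release a transcription factor, read 10.81 and 10.94 with sunitinib and 10.58 and 10.79 with vehicle. Its difference was 0.19 (SE 0.11), with no overlap between groups. Ern1, the kinase and endoribonuclease that splices Xbp1, read 9.11 and 9.04 with sunitinib and 8.94 and 8.86 with vehicle (difference 0.175, SE 0.08), close to the median level of all genes (9.08). The eIF2α kinase Eif2ak3 read 9.40 and 9.58 with sunitinib and 9.34 and 9.29 with vehicle (difference 0.175, SE 0.10). Atf4 read 10.55 and 10.68 with sunitinib, above the 10.44 seen in both vehicle arrays (difference 0.175, SE 0.09). All 4 of these were higher on both slides without overlap, by less than 0.2 log2 each, and none passed the unadjusted threshold. The brightest Eif2ak3 probe lies in a patch. Bright neighbours of Atf6, Ern1, Eif2ak3 and Atf4 differed by 0.05, 0.0, 0.18 and -0.07 on slide 1. On slide 2 they differed by 0.08, 0.17, 0.21 and 0.15, where the genes themselves differed by 0.15, 0.18, 0.29 and 0.24. With the smooth position trend removed, the differences of these genes were 0.16, 0.149, 0.099 and 0.044. Over all genes 25.9% read higher without overlap and 32% higher on both slides. Xbp1 stood apart, with 12.75 and 11.22 in the sunitinib arrays, the highest and the lowest value of all 4, and 12.10 and 12.41 in the vehicle arrays. Its single probe lies in a patch. Bright features around it differed by a median of -0.10 on slide 1 and -0.72 on slide 2, where Xbp1 itself differed by 0.65 and -1.19. Without sunitinib replicate 2 the difference of Xbp1 was 0.495.

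ER folding genes had the widest spread of the members. The median over 9 genes was 0.205 log2 (0.115 without vehicle replicate 1), with slide medians of 0.32 and 0.09. Of the 9, 6 read higher on slide 1 and 5 on slide 2, where 9288 and 10143 of all 19087 genes read higher. At an unadjusted p under 0.05, 3 of the 9 were higher and 0 lower, against 8.01% and 5.93% of all genes, and 2 of the 3 (Pdia4 and Creld2) have only patch probes. Pdia4, a protein disulphide isomerase of the ER lumen, read 13.46 and 13.11 in the sunitinib arrays and 11.88 and 12.69 in the vehicle arrays. The sunitinib arrays lay above both vehicle arrays, and vehicle replicate 1 was the lowest by far (difference 1.00, SE 0.30, limma adjusted p = 0.362). Its probe lies in a patch where bright neighbours also differed, by 0.64 on slide 1 and 0.23 on slide 2, against 1.58 and 0.42 for Pdia4 itself. Creld2, a secreted ER stress-inducible protein whose promoter carries ERSE, read 12.27 and 12.03 with sunitinib and 11.76 and 11.87 with vehicle (difference 0.335, SE 0.12). Its neighbours differed by 0.48 and 0.215 on the slides, as much as Creld2 did (0.51 and 0.16). For Pdia4 and Creld2 no probe lies outside the patches.

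Hyou1, a large ER-resident relative of the Hsp70 chaperones, was bright and lay outside the patches. It read 14.96 and 14.60 with sunitinib and 13.97 and 14.42 with vehicle. The groups did not overlap, and the difference of 0.585 (SE 0.21, limma adjusted p = 0.373) was 0.99 on slide 1 and 0.18 on slide 2. Neighbours of this probe differed by -0.06 and 0.115, and a second Hyou1 probe by 0.10. Sdf2l1, an ER partner of Hspa5 complexes, read 11.23 and 11.18 with sunitinib and 10.91 and 11.09 with vehicle (difference 0.205, SE 0.10). Calr, the lectin chaperone calreticulin, read 11.96 and 11.89 with sunitinib and 11.86 and 11.62 with vehicle (difference 0.185, SE 0.11). It differed by 0.1 and 0.27 on the slides, where its neighbours differed by -0.03 and 0.18. With the smooth position trend removed the difference of Calr was 0.006. A second, dimmer Calr probe in a patch differed by 0.825, and its neighbours by 0.48 on slide 1. Pdia3, the isomerase that works with calreticulin, overlapped between groups, with 15.28 and 14.92 with sunitinib and 14.78 and 15.01 with vehicle.

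The remaining folding genes did not read higher. The membrane lectin chaperone Canx read 12.58 and 12.64 with sunitinib and 12.72 and 12.67 with vehicle (difference -0.085, SE 0.08), and its promoter carries ERSE as that of Calr does. Manf, an ER-retained and secreted stress protein, read 11.68 and 11.64 with sunitinib and 11.76 and 11.68 with vehicle. Pdia6, an isomerase that restrains signalling by the sensors, read 13.76 and 12.34 with sunitinib and 14.06 and 14.09 with vehicle. The difference of -1.03 (SE 0.48) came mostly from sunitinib replicate 2. The other 3 Pdia6 probes differed by 0.16, 0.125 and 0.06, opposite to the brightest, so no direction is given for this gene. Without patch features the median over the 7 folding genes left was 0.185, with 0.10 on slide 1 and -0.03 on slide 2.

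**Figure D3:**
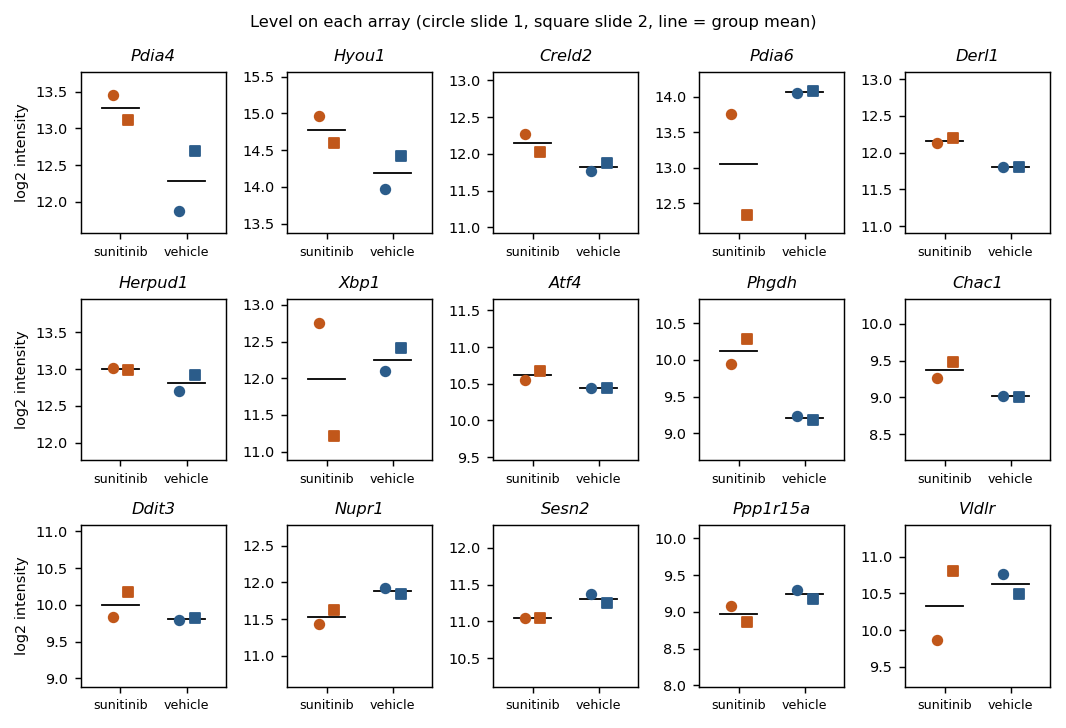
Log2 intensity of 15 members on each array, sunitinib in orange and vehicle in blue, with circles for slide 1, squares for slide 2 and a line at each group mean. Each panel has its own axis. Phgdh, Derl1 and Chac1 show 2 close vehicle values under both sunitinib values, while for Xbp1 and Vldlr the sunitinib arrays part on either side of the vehicle arrays.

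Genes of ER-associated degradation move misfolded proteins to the cytosol and ubiquitinate them. Over 6 of them the median was 0.175, with 0.205 on slide 1 and 0.155 on slide 2, against 0.005 over all genes. Derl1, a channel component of this export, read 12.13 and 12.20 with sunitinib and 11.80 in both vehicle arrays. The difference of 0.365 (SE 0.08, limma adjusted p = 0.362) was 0.33 and 0.40 on the slides. Its 3 dimmer probes differed by -0.125, -0.135 and -0.01. The difference of Derl1 was 0.238 with the smooth position trend removed and 0.024 with the mean of all its probes. Herpud1, a membrane protein that organises the degradation complex and whose promoter carries both ERSE-II and CARE, read 13.02 and 12.99 with sunitinib and 12.70 and 12.92 with vehicle (difference 0.195, SE 0.11, no overlap). Derl2, a relative of Derl1, read 11.43 and 11.67 with sunitinib and 10.80 and 11.47 with vehicle, with its brightest probe in a patch, and a second probe outside differed by 0.275. Edem1, a lectin that hands misfolded glycoproteins to this pathway, differed by 0.155 (SE 0.11), and by 0.16 and 0.18 on its other 2 probes. Syvn1, the ubiquitin ligase Hrd1, read 12.65 and 12.71 with sunitinib and 12.73 and 12.67 with vehicle, and its promoter carries ERSE. Sel1l, the adaptor of Syvn1, differed by 0.10 on a probe in a patch and by -0.135 and -0.13 on 2 dimmer probes. Bright neighbours of Derl1, Herpud1, Derl2, Edem1, Syvn1 and Sel1l differed by 0.1, -0.07, 0.365, -0.055, 0.02 and 0.52 on slide 1. On slide 2 they differed by 0.175, 0.13, 0.195, 0.105, 0.21 and 0.27. The genes themselves differed by 0.33, 0.32, 0.63, 0.09, -0.08 and 0.09 on slide 1. On slide 2 the genes differed by 0.40, 0.07, 0.20, 0.22, 0.04 and 0.11.

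Among the 14 Atf4 targets the slides parted, with 4 genes higher and 9 lower on slide 1 and 11 higher and 3 lower on slide 2. Over all 19087 genes, 9288 read higher and 9351 lower on slide 1, and 10143 higher and 8513 lower on slide 2. The median of the 14 targets was 0.062 over both slides, -0.105 on slide 1 and 0.22 on slide 2. It turned to -0.027 with the position trend removed, to -0.008 without sunitinib replicate 2 and to -0.03 without vehicle replicate 2. ER folding genes ran the other way in size, with 0.32 on slide 1 and 0.09 on slide 2, so neither set stood above the other on both slides, and the difference between the sets was not tested. The largest difference of the 14 was that of Phgdh, the first enzyme of serine synthesis, which read 9.95 and 10.29 in the sunitinib arrays and 9.23 and 9.18 in the vehicle arrays. The difference of 0.915 (SE 0.14, limma adjusted p = 0.362) was 0.72 and 1.11 on the slides, where bright neighbours differed by 0.165 and 0.20. The other 2 Phgdh probes differed by 0.205 each, and 1 of these was about as bright (mean 9.64 against 9.66). Psat1, the next enzyme of the pathway, read 9.46 and 9.50 with sunitinib and 9.30 and 9.39 with vehicle (difference 0.135, SE 0.08, no overlap). Shmt2, the mitochondrial enzyme that converts serine to glycine, differed by 0.02 (SE 0.08).

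Chac1, which degrades glutathione, read 9.27 and 9.48 with sunitinib and 9.02 and 9.01 with vehicle. Both sunitinib values were higher (difference 0.36, SE 0.10, limma adjusted p = 0.362), at a level near that of the median gene. Chac1 differed by 0.25 and 0.47 on the slides, where its bright neighbours differed by 0.1 and 0.23. With the smooth position trend removed its difference was 0.22. Ddit3, the transcription factor CHOP, read 9.84 and 10.17 with sunitinib and 9.80 and 9.82 with vehicle, so that sunitinib replicate 1 nearly met the vehicle arrays (difference 0.195, SE 0.13). Asns, which makes asparagine, overlapped between groups, with 10.71 and 10.94 with sunitinib and 10.81 and 10.62 with vehicle. The stress-inducible factor Atf3 overlapped too, with 10.56 and 10.63 with sunitinib and 10.71 and 10.31 with vehicle. The pseudokinase Trib3, a feedback inhibitor of Atf4, differed by 0.04 (SE 0.10) near the floor of the scale, and the cystine transporter Slc7a11 by 0.125 (SE 0.10), also there, with -0.195, 0.23 and -0.15 on its other probes. Slc3a2, the heavy chain that carries amino acid transporters to the membrane, was bright and differed by -0.14 (SE 0.11).

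Nupr1, a small chromatin protein induced by many stresses, read 11.43 and 11.62 in the sunitinib arrays and 11.93 and 11.84 in the vehicle arrays (difference -0.36, SE 0.10, limma adjusted p = 0.362). Sesn2, which senses leucine and restrains mTORC1, read 11.05 in both sunitinib arrays and 11.37 and 11.25 with vehicle (difference -0.26, SE 0.08, limma adjusted p = 0.362). A dimmer Sesn2 probe differed by -0.055. Ppp1r15a (GADD34), the phosphatase subunit that reverses eIF2α phosphorylation, read 9.08 and 8.86 with sunitinib and 9.30 and 9.18 with vehicle (difference -0.27, SE 0.11). All 3 lay below both vehicle arrays on a probe outside the patches. The promoters of Nupr1, which read lower, and Chac1, which read higher, both hold CARE. Vldlr, a lipoprotein receptor that Atf4 and hypoxia are known to induce, read 9.86 and 10.80 with sunitinib and 10.77 and 10.49 with vehicle, with differences of -0.91 on slide 1 and 0.31 on slide 2.

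Wider lists of the same pathways gave medians closer to 0. They held 97 measured genes, none of them a member. For further folding and secretion genes the median was -0.07 over 29 genes, with 1 higher and 5 lower at an unadjusted p under 0.05 (8.01% and 5.93% of all genes), and for further degradation genes it was 0.09 over 13, with 2 higher and 0 lower. Hspa5 (BiP), the main ER chaperone, read 14.74 and 14.24 with sunitinib and 14.18 and 13.73 with vehicle (difference 0.535, SE 0.24, limma adjusted p = 0.406, and 0.546 with the slide block), similar on both slides (0.56 and 0.51). Its probe lies near the array's edge in a patch, with 15 bright neighbours that differed by -0.23 and -0.14. Hsp90b1 (Grp94), the ER Hsp90, differed by -0.98 (SE 0.51) on its brightest probe, whose neighbours differed by -1.12 on slide 2, and by -0.30 on a probe outside the patches. The translocon subunit Sec61a1 differed by -1.58 (SE 0.51) in the same area, where neighbours differed by -1.05 on slide 2, and by -0.03 outside it. The folding cofactor Dnajc3 differed by -0.985 in a patch, with -1.47 on slide 2 where its neighbours differed by -0.27, and by -0.09 on its brightest probe outside. Dnajb9, a partner of Hspa5, differed by -0.17 (SE 0.08), and by 0.245 and 0.015 on its dimmer probes. Ero1b, an oxidase that recharges the isomerases, differed by 0.33 (SE 0.08) and lay outside the patches, with neighbours at 0.115 and 0.215 on the slides. Its dimmer probes differed by -0.06, 0.13 and 0.05. Sil1, the exchange factor of Hspa5, differed by -0.27 (SE 0.09), and the oxidase Ero1a by -0.51 (SE 0.17) and P4hb by -0.81 (SE 0.27), both in patches. In the degradation list Vcp, the segregase ATPase, differed by 0.285 (SE 0.09) on its brightest probe and by -0.235 on its other, both in patches. Faf2 differed by 0.49 (SE 0.16) in a patch and by 0.085 on a probe outside.

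Further Atf4 targets had a median of -0.01 over 39 genes, with slide medians of -0.02 and 0.12. At an unadjusted p under 0.05, 4 were higher and 5 lower, against 8.01% and 5.93% of all genes. The smallest p belonged to Atf5, a factor induced along with Atf4, which read 12.35 and 12.40 in the sunitinib arrays and 13.15 and 13.02 in the vehicle arrays (difference -0.71, SE 0.09, limma adjusted p = 0.362, and 0.546 with the slide block). Stc2, a secreted glycoprotein, differed by -0.54 (SE 0.09) and Gadd45b by -0.405 (SE 0.12), while Gadd45a, in a patch, differed by -0.775 (SE 0.18). The Stc2 values with sunitinib, 8.46 and 8.6, were near the floor of the scale. On the higher side were the tRNA synthetases Cars (0.565, SE 0.16) and Iars (0.42, SE 0.10) and the cytosolic serine hydroxymethyltransferase Shmt1 (0.395, SE 0.08), each with at least 1 dimmer probe of the other sign. Psph, the last enzyme of serine synthesis, differed by 0.36 in a patch and by -0.105 outside, and the tRNA synthetase Lars by -0.445 in a patch and -0.08 outside. Ddit4, a stress-induced mTORC1 inhibitor, was close to the ceiling of the scale on all arrays and gave no usable difference. Among 16 further sensors and effectors the median was -0.072, with 2 higher and 2 lower at that threshold, beside the same shares of all genes. Of these, Eif2ak2 (PKR) differed by 0.645 (SE 0.15) and Pmaip1 by -0.26 (SE 0.08), both in patches. The eIF2B subunit Eif2b4 (0.21, SE 0.07, and -0.205 on a dimmer probe in a patch) and the membrane factor Creb3l2 (-0.40, SE 0.13) lay outside them.

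Markers of cell types and of hypoxia were read beside the members, against a background of 25.9% of all genes higher and 22.3% lower without overlap. No such list had a gene that passed adjustment. Of 8 measured adipocyte markers, 6 read higher without overlap and 0 lower, and their summed linear intensity was 24137 to 30559 with sunitinib and 17534 to 19272 with vehicle. Of 8 fibroblast markers, 6 read lower without overlap and 0 higher, with sums of 116265 to 129723 with sunitinib and 141960 to 164368 with vehicle. In these sums Col3a1 read 15.94 to 15.97, close to the ceiling of the scale, and the only Pdgfrb probe lies in a patch. The brightest probe of the adipocyte marker Fabp4, in a patch, differed by 0.17, and its probes outside by 0.995 and 0.485. Without patch features the median difference was 0.775 over the 6 adipocyte markers left and -0.38 over the 7 fibroblast markers left. Of 15 hypoxia-induced genes, 6 read lower and 1 higher without overlap. On slide 2 alone, where 10143 of all 19087 genes read higher and 8513 lower, 9 of the 15 read higher and 6 lower. Their sums overlapped between groups and were 45075 and 64166 with sunitinib and 75813 and 62141 with vehicle on slides 1 and 2, and their median difference was -0.73 on slide 1 and 0.08 on slide 2, where that of the Atf4 targets was -0.105 and 0.22. Vegfa differed by -1.18 and 0.03 on the slides, the glucose transporter Slc2a1 by -1.07 and -0.28 and Ndrg1 by -1.23 and -0.25. The hexokinase Hk2 (-1.375, SE 0.37) and Higd1a (-0.92, SE 0.16, and -0.10 on a probe outside) had their brightest probes in patches. Plasma cell markers, of interest because these secretory cells carry a high level of Xbp1, were below the median gene for 4 of 6, with sums of 4186 to 4324 with sunitinib and 4219 to 4720 with vehicle. Markers of macrophages (6 measured), endothelium (8), skeletal muscle (6) and keratinocytes (5) had summed ranges that overlapped between groups, except that those of keratinocytes were 2498 to 2547 with sunitinib and 2457 to 2492 with vehicle. The part of adipocytes, fibroblasts and hypoxia in the members' differences was not tested.

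**Figure D4:**
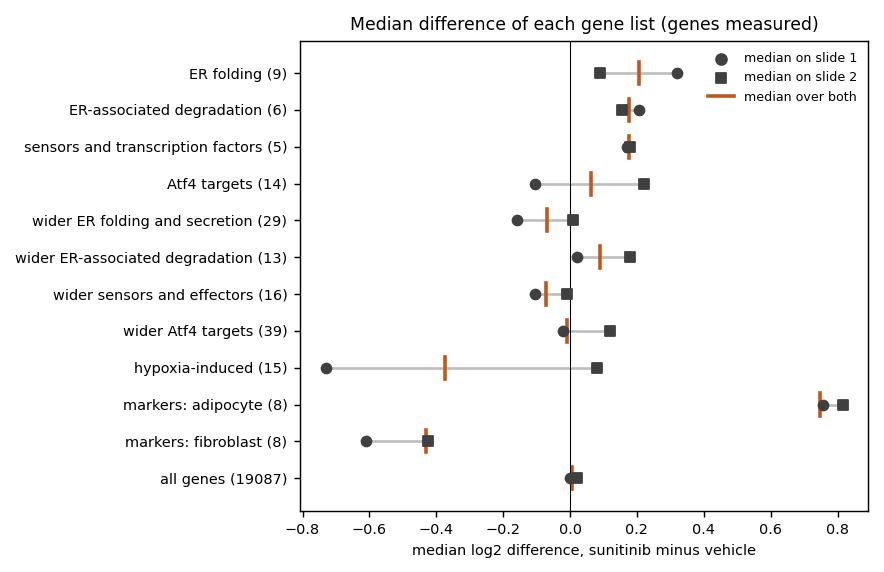
Median log2 difference of sunitinib minus vehicle for each gene list, on slide 1 (circles), on slide 2 (squares) and over both (orange bars), with the number of genes measured in brackets. The sensors and the degradation genes lie at similar values on both slides, while the Atf4 targets and the hypoxia-induced genes lie to the left on slide 1 and to the right of 0 on slide 2.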

How the data were processed

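RNA of the xenografts was hybridised to 4 single-colour Agilent arrays, per the labels. The authors deposited 1 log2 intensity per feature and array. The submitters' processing notes name limma. How background was corrected and arrays were normalized is not stated in any source at hand. That the scale is log2 follows from the range (6.75 to 16.34), and the array medians were 8.89 or 8.90. Values were used as deposited, and no unused sample columns were present.

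Of 45220 features, 33653 had 1 gene in the platform annotation, 56 had several and the rest were not listed. Symbols were updated through RefSeq (99.6% matched). Spots of a probe in 8 or more copies were combined by the median, and the brightest probe stood for its gene. With the unnamed features this gave 30654 tested values. No detection flags were used here, and values near the floor (5th percentile 8.48 or 8.49) have compressed differences. A value of 15.95 or more counted as saturated, which held for 0 members. The number of arrays limits the precision.

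Sunitinib was compared with vehicle by limma 3.58.1 (R 4.3.3) with treatment alone, with Benjamini-Hochberg adjustment across the whole table at 0.05. The self-test on simulated data recovered the differences put in on average. Its noise was independent for each value, without patches or slide effects, so it checks the code and not the calls made here. The array titles place both arrays numbered 1 on the same slide and both numbered 2 on another, so the number marks a shared slide. Deviations of same-slide arrays correlated at -0.225. The slide block and the other alternatives are given in the closing section. On each slide the vehicle array has position 1 and the sunitinib array position 2, so position and treatment cannot be told apart. The labels do not say that replicates were separate animals, so p-values may measure technical spread.

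The members, lists and motifs were chosen with earlier results of these data known. All members are described. From the wider lists, up to 6 genes per list and direction with an unadjusted p under 0.05 and the same sign on both slides are named (smallest p first), with Hspa5, Hsp90b1, Dnajb9, Ddit4, Vegfa and Slc2a1. The wider pathway lists held 102 genes, of which 5 had no probe with a single gene here and are not analysed. Sequences are from RefSeq (GRCm38.p6).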

Additional observations from a re-analysis of the deposited data

How the results depend on the processing

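No member passed the adjusted threshold under any alternative (smallest adjusted p = 0.29). Of 473 member values under alternatives, 246 differed from the reported value, and 17 of these had the other sign. Most of the rest could not change, since the blocks, the prior, the floor and the filter on dim probes leave a member's difference as it is. Genes called over all tested values numbered 1 as reported, 0 with the replicate block, 0 with the mean of all probes, 0 with the floor, 2 with median centring, 2 with the smooth position trend removed, 3 with a trended robust prior and 0 without any 1 array. The block with crossed numbers, added after seeing the data because same-slide deviations correlated negatively, called 0. With the replicate block (slide), members at an unadjusted p under 0.05 numbered 3 higher and 0 lower, and it changed no adjusted call of a member. With the mean of all probes 1 was lower. Leaving out 1 array gave 2 to 6 higher and 0 to 3 lower, and 5 to 9 members without overlap below the vehicle arrays left. With 1 array on a side, groups part more easily, so these last counts are not comparable with the 5 reported. With the position trend removed, 9 members lay above and 8 below. The ER folding median was 0.115 to 0.295 without 1 array. The Atf4 target median (0.062) was -0.027 with the position trend removed and -0.03 to 0.138 without 1 array. Averaging all probes gave a degradation median of 0.099, against 0.092 to 0.252 without 1 array. The sensor median came to 0.15 when all probes were averaged, 0.099 with the position trend removed and 0.125 to 0.24 without 1 array. Values that changed sign were Syvn1 at 0.032 and Sel1l at -0.055 with the mean of all probes, Sel1l at -0.002, Asns at -0.024, Psat1 at -0.034 and Slc7a11 at -0.03 with the position trend removed, and Sel1l at -0.135 without patch features (added after seeing the data). Without 1 array the sign also changed for Syvn1 (-0.05 to 0.01), Vldlr (-0.77 to 0.17), Xbp1 (-1.035 to 0.495), Trib3 (-0.04 to 0.12), Asns (-0.005 to 0.225), Shmt2 (-0.03 to 0.07) and Atf3 (-0.115 to 0.285). The cause was not tested. When 1 array is left out, the single array of that group is assumed to vary like the other group. Quantile normalization and leaving out dim probes were also run. With 2 arrays a group, probes near the floor and bright probes in patches have the least reliable values.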
